A study of Mus musculus with 12 samples.

Results

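The mouse forkhead genes outside the 2 deleted Foxc loci were followed across the 6 groups of the study. The members were chosen by symbol: every gene named Fox, then 1 letter from a to s, then a number, with the RefSeq accession of each array probe giving the symbol. Of 44 such genes, Foxc1 and Foxc2, the deletion targets, were left out together with Foxl1, Foxf1, Foxf2 and Foxq1, which lie beside Foxc1 or Foxc2 in the genome. The remaining 38 genes all had a probe, among 20144 genes with a named probe. They had 49 probes, 29 genes with 1 and 9 with several.

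RNA was measured on 12 single-colour arrays, 1 per sample, 2 per group. All mice and cultures carried floxed Foxc1 and Foxc2 alleles together with an inducible Cre, so the untreated samples carry the same alleles and transgene. The promoter that drives the Cre, which the series describes as CreERT2, is not given in the labels. The 6 groups were glomeruli of tamoxifen-treated mice, glomeruli of control mice that received no agent, cultures given tamoxifen for 4 days, mock-treated cultures of 4 days, cultures given tamoxifen for 7 days, and mock-treated cultures of 7 days. Treated mice had injections into the peritoneum on 3 days in a row when 8 weeks old, and their glomeruli were taken on day 7, as the labels count it. The cultures were podocytes expanded from glomeruli of adult mice and received the active form of the drug. No sample received the drug without the floxed alleles, so the drug and the deletion cannot be told apart. Glomeruli were labelled as separate mice, while the labels do not say whether the cultures were separate, so the spread between cultures may be technical. Unless stated otherwise, p-values for glomeruli and cultures alike rest on 1 spread per gene pooled over all 6 groups. They measure only the spread between these samples.

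Forkhead transcription factors share a winged-helix DNA-binding domain and recognise a short core sequence, of which GTAAACA is the usual form. Factors of the Foxa class open closed chromatin in epithelia, Foxo proteins act downstream of insulin and Akt signalling, Foxm1 drives genes of late cell division, and Foxj1 and Foxi1 set up motile cilia and the acid-secreting intercalated cells of the kidney. Foxd1 marks the stromal progenitors of the developing kidney. Foxc1 and Foxc2 are expressed in podocytes, the filtering epithelial cells of the glomerulus.

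The windows below are the sequence around the annotated start of the members on which the comparisons turn, from 250 bases before the start to 50 after it, 5′ to 3′ on the gene's strand, as RefSeq gives them for mouse build GRCm38.p6. Capitals mark letters that match the forkhead core, searched on both strands. The letters searched were GTAAACA, together with GTAAATA, the forms ATAAACA as well as ATAAATA, the forms ACAAACA as well as ACAAATA, and the forms GCAAACA as well as GCAAATA. Foxd1, the gene that fell in tamoxifen-treated cultures, has its window at chr13:98353995-98354294, plus strand. Foxn3, lower in tamoxifen-treated glomeruli, is at chr12:99450025-99450324, minus strand. Foxa1, with the widest gap between cultures and glomeruli, is at chr12:57546062-57546361, minus strand. For Foxp1 the start at chr6:99266466-99266765, minus strand, is 1 of 3 annotated starts.
Foxd1: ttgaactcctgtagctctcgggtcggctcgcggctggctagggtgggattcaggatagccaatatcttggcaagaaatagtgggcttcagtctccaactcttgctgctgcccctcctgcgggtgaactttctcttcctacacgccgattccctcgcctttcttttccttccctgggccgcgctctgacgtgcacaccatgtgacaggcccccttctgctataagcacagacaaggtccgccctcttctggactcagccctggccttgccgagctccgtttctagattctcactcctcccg
Foxn3: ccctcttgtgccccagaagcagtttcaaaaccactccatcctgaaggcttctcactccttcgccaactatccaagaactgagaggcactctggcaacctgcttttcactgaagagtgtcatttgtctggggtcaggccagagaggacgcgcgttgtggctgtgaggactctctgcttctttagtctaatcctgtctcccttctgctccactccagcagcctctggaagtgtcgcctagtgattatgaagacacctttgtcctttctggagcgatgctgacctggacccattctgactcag
Foxa1: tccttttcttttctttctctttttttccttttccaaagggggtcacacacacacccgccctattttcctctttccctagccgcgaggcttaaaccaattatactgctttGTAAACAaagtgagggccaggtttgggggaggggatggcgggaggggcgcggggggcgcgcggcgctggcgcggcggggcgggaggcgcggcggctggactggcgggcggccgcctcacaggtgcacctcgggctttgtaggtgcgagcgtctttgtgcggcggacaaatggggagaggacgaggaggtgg
Foxp1: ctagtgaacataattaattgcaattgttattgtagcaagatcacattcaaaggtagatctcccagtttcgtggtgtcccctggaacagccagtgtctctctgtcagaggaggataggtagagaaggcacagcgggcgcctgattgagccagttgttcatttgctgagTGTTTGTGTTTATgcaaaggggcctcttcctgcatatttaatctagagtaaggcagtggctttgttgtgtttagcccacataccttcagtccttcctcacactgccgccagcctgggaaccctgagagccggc
Foxd1 and Foxn3 held none of the 8 letter runs in these windows. Foxa1 held GTAAACA, starting 141 bases before the gene's start, and no other of the 31 windows available for 26 members held that run. The Foxp1 window held TGTTTGT and TGTTTAT, read from the other strand, which share 1 base. Of the Foxp1 windows not shown, the one from chr6:99520944 held 2 runs and the one from chr6:99028249 held none. Across members, 9 of 31 windows (29.0%) held at least 1 of the 8 runs, against 27.5% of all 32851 windows of this length, and GTAAACA alone was in 3.23% against 3.65%. These matches describe letters only. Windows for Foxe1, Foxj1 and Foxs1 are not shown.

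Values are log2 of the processed probe signal minus the array's 75th percentile of it, so 0 is the signal that 75% of spots lie under, and levels are compared only within a probe. Between 57.9% and 63.4% of spots per array were well above background by the scanner's own flag, which bounds what dim probes can show. The targeted genes followed the labels. Foxc2 was -1.12 and -0.19 in tamoxifen-treated glomeruli and 2.10 and 2.24 in control glomeruli, and -7.81 to -5.42 over the 4 tamoxifen-treated cultures against 1.37 to 1.76 over the 4 mock cultures. Foxc1 was 0.92 and 1.09 in tamoxifen-treated glomeruli and 2.92 and 2.81 in control glomeruli, and -8.21 to -1.74 in tamoxifen-treated cultures against 2.62 to 4.32 in mock cultures. For Foxc2 the limma adjusted p was 0.037 in glomeruli, 0.0019 at day 4 and 0.00070 at day 7. For Foxc1 the limma adjusted p was 0.62 in glomeruli, 0.14 at day 4, 0.057 at day 7 and 0.010 over the mean of both culture days. Whether the Foxc1 and Foxc2 probes lie in the deleted parts was not determined. All 4 glomerular arrays were on 1 slide, all day 4 cultures on another and all day 7 cultures on one more, so each tamoxifen comparison was within a slide, while culture against glomeruli and day 7 against day 4 cannot be told apart from slide.

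Of the podocyte markers, Nphs1 (nephrin) was 0.05 to 0.79 in mock cultures against 4.52 and 5.06 in control glomeruli, and Wt1 was 4.92 to 5.16 in mock cultures against 5.40 and 6.02 in control glomeruli. None of the 14 listed podocyte markers was below background on both arrays of any group. Of the 14, 10 were called lower and 2 higher in mock cultures than in control glomeruli, with a median of -1.92. Over all genes tested, 26% were called lower and 37.6% higher (median 0.17).

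A total of 26 members had a probe well above background on at least 2 of 12 arrays and were tested, 18 of them with all 12 arrays above background. The other 12 included Foxa2, Foxa3, Foxb1, Foxb2, Foxd3, Foxi2 and Foxn1. Of these, 10 were above background on no array, and their 12 probes lay between -8.16 and -5.87 on the log2 scale. Foxd3 read -1.76 on the array of control glomeruli 2 and between -7.78 and -7.22 on the other 11 arrays. Foxb1 read -4.13 on the array of day 4 mock culture 2 and between -8.06 and -7.54 on the others. Each of these single readings has no second array to set beside it.

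**Figure D1:**
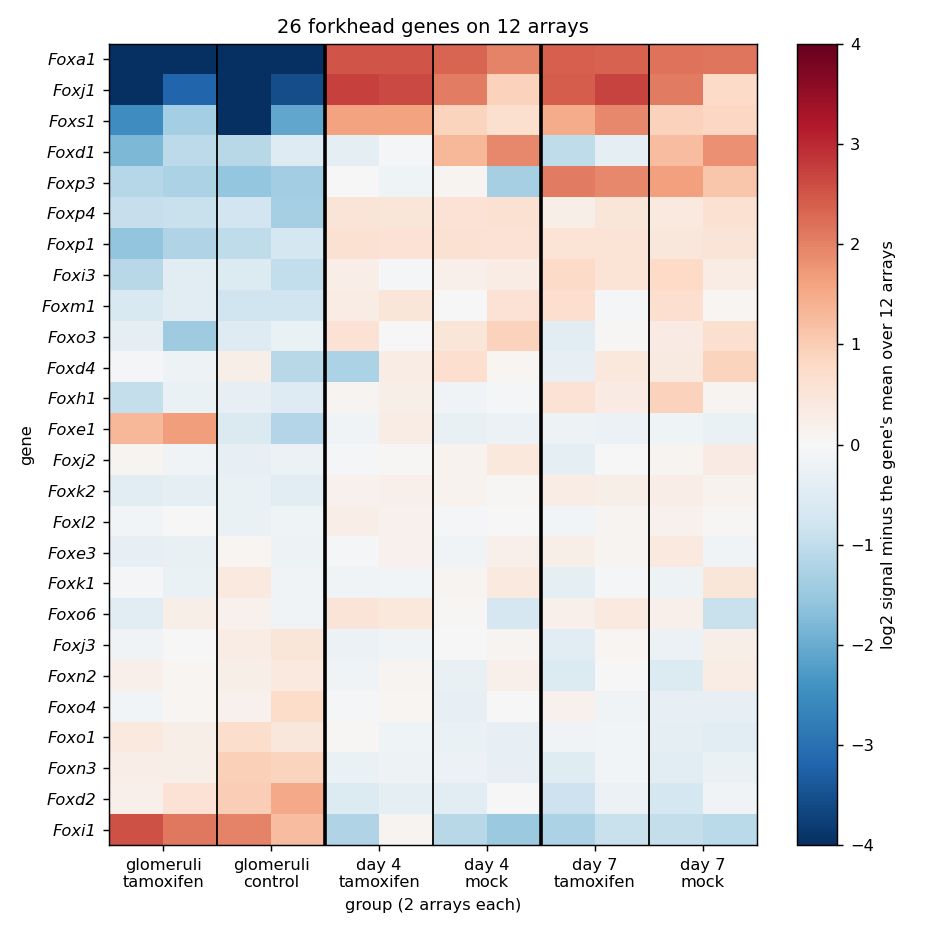
Each row is 1 of the 26 tested forkhead genes and each column 1 of 12 arrays. Colour is the log2 signal minus the gene's mean over the 12 arrays, and values past 4 in size take the end colour. Foxa1, Foxj1 and Foxs1 at the top are high in all 8 cultures and low in all 4 glomerular arrays, while Foxi1 at the bottom runs the other way.

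The first comparison asked which forkhead genes differed between glomeruli of tamoxifen-treated and control mice. Foxe1 rose and Foxn3 fell, 2 of 26 members, or 7.69%, against 2.62% of all 15226 genes tested (1.73% higher and 0.893% lower). Foxe1, a factor of thyroid development, was 5.18-fold higher. Foxn3, a forkhead protein known as a transcriptional repressor, was 1.60-fold lower.

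Foxe1 read -3.48 and -3.11 on the log2 scale in tamoxifen-treated glomeruli against -5.37 and -5.97 in control glomeruli. Both treated arrays were above both control arrays, and only 1 of the 2 control arrays was well above background. The log2 difference was 2.37 (SE 0.23, 95% interval 1.84 to 2.90, limma adjusted p = 0.0092). In cultures the same probe read -4.95 and -4.49 in day 4 tamoxifen against -5.09 and -5.04 in day 4 mock, and -5.00 and -5.04 in day 7 tamoxifen against -4.96 and -5.07 in day 7 mock. The treated glomeruli held the highest Foxe1 readings of the 12 arrays, and the other 10 lay between -5.97 and -4.49. With normexp background correction the glomerular difference was 0.81 (limma adjusted p = 0.31), and with the 4 glomerular arrays fitted alone its adjusted p was 0.27.

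Foxn3 read -0.16 and -0.21 in tamoxifen-treated glomeruli against 0.52 and 0.46 in control glomeruli. Both treated readings were lower than both control readings, and Foxn3 fell by 0.68 (SE 0.13, limma adjusted p = 0.046). In cultures Foxn3 lay between -0.92 and -0.56 on all 8 arrays, under both glomerular groups, with tamoxifen differences of 0.05 at day 4 and 0.05 at day 7 that were not called. The Foxn3 call held without either day 7 tamoxifen culture and was lost without any 1 of the other 10 arrays, with adjusted p up to 0.17. It was also lost with normexp, with median scaling, with no filter on dim probes and with the glomeruli fitted alone.

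The third lowest p in glomeruli was Foxp1, a repressor with a zinc finger and a leucine zipper beside its forkhead domain. It read 1.81 and 2.19 in tamoxifen-treated glomeruli against 2.37 and 2.68 in control glomeruli, a log2 difference of -0.53 (95% interval -0.88 to -0.18) that did not pass (limma adjusted p = 0.11). Its 3 probes all had lower means in treated glomeruli, at -0.25, -0.60 and -0.53. Foxd2, a factor of the paraxial mesoderm and kidney, read 2.32 and 2.70 in treated against 3.13 and 3.66 in control glomeruli and did not pass (limma adjusted p = 0.18).

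The remaining 22 members differed by -0.61 to 1.13 in glomeruli and none passed. Foxs1, known in pericytes and smooth muscle, was -0.67 and 0.46 in treated against -2.19 and -0.28 in control glomeruli. The groups overlapped, and the lowest of the 4 readings was a control array. Over all 26 members 11 means were higher and 15 lower, with a median of -0.15 against -0.05 over all genes. The readings of the groups did not overlap for 15 members, against 48% of all genes. At an unadjusted limma p under 0.05 there were 4 of 26 members (1 higher, 3 lower), against 18.3% of all genes.

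Markers of other cells moved with these groups. Of 13 proximal tubule markers, 13 had higher means in tamoxifen-treated glomeruli and 3 passed (Slc22a6 1.65, Ggt1 1.54 and Acsm2 1.68), with summed linear signal, in units of each array's 75th percentile, of 215 to 355 in treated and 103 to 115 in control glomeruli. For the loop, distal tubule and collecting duct, 10 of 12 had higher means, Slc12a1 (1.48) and Kcnj1 (0.77) passed, and the sums were 62.8 to 67.3 and 50.7 to 51.0. For podocytes 13 of 14 had lower means, 1 passed (Synpo, -1.32), and the sums were 292 to 391 in treated and 422 to 534 in control glomeruli. All 13 endothelial markers had lower means and none passed, with sums of 246 to 247 and 296 to 349. Of 13 mesangial, stromal and mural markers, 11 had higher means and Acta2 (1.1) passed, with sums of 75.3 to 75.8 and 41.9 to 90.7. Of 6 red cell genes 4 fell, among them Hbb-b2 (-5.50), Hbb-bt (-5.83) and Alas2, which was below background in treated glomeruli and at least 9.12-fold lower there, and 1 of 12 immune markers fell (Ms4a1, -1.95). The part of cell makeup in the Foxe1 and Foxn3 results was not tested, and in these bulk samples fewer cells of a type and less RNA per cell cannot be told apart.

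**Figure D2:**
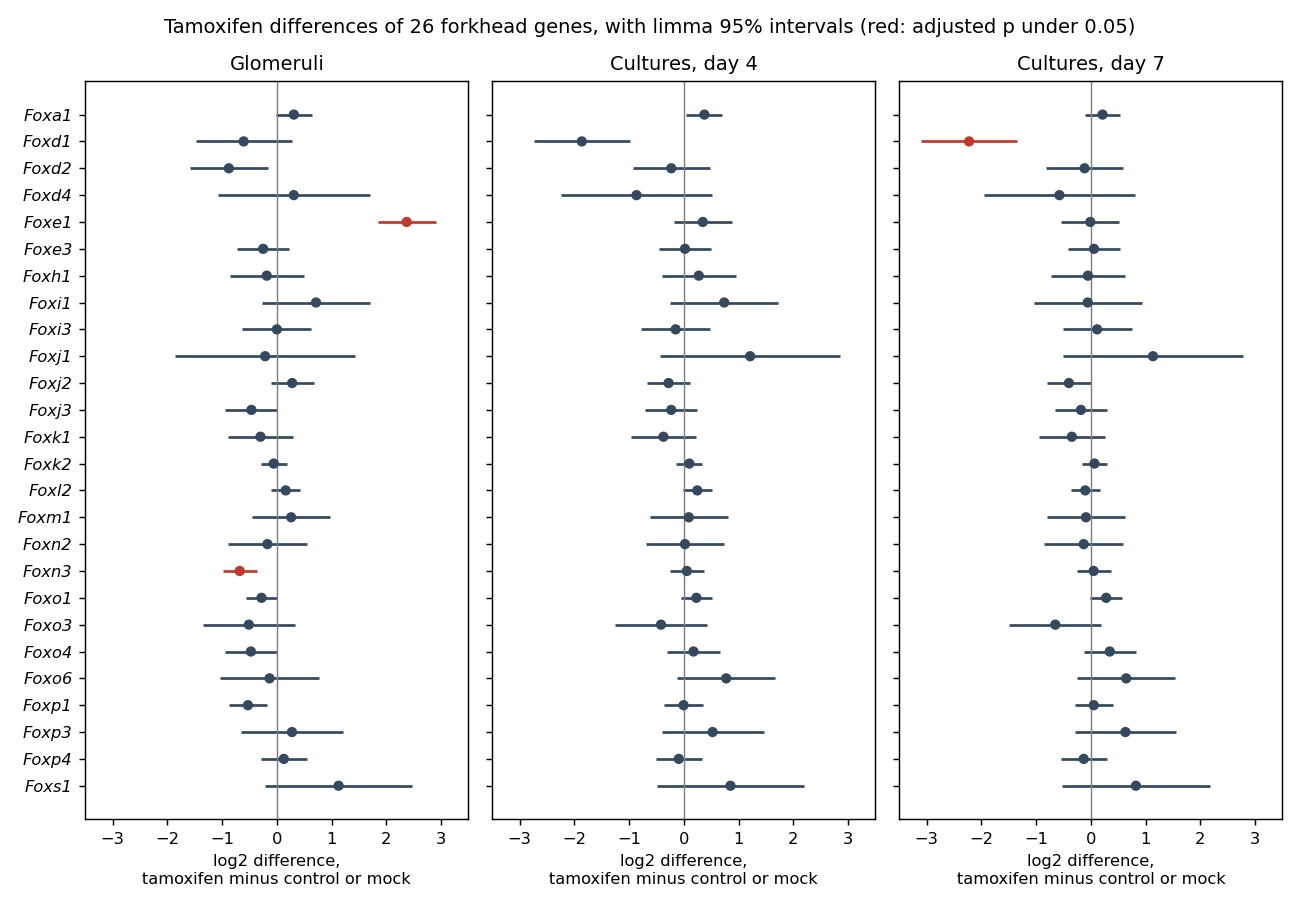
Points are log2 differences of the 26 tested forkhead genes, tamoxifen minus control in glomeruli and tamoxifen minus mock in day 4 and day 7 cultures, and bars are limma 95% intervals. Foxe1 and Foxn3 in glomeruli and Foxd1 at day 7 are the calls, drawn in red, and Foxd1 lies at -1.86 at day 4.

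The next comparisons asked the same of cultured podocytes. Foxd1 was the member set furthest apart by the treatment on both days. It read 1.25 and 1.55 in day 4 tamoxifen cultures against 2.98 and 3.55 in day 4 mock cultures, and 0.61 and 1.28 in day 7 tamoxifen cultures against 2.86 and 3.48 in day 7 mock cultures. Every treated culture was lower than every mock culture of its day.

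At day 7 Foxd1 fell by 2.23 on the log2 scale, or 4.68-fold (SE 0.38, 95% interval -3.10 to -1.35, limma adjusted p = 0.045). It was the only member called at day 7, 1 of 26 (3.85%), against 0.972% of all genes (0.453% higher and 0.519% lower). At day 4 the difference was -1.86 (SE 0.38, 95% interval -2.74 to -0.99) and did not pass (limma adjusted p = 0.11), and no member was called among 26, against 0.21% of all genes (32 genes). With limma, 2 of 26 members had an unadjusted p under 0.05 at day 4, against 10.9% of all genes. The day 7 call was lost when any 1 of the 12 arrays was left out (differences of -2.56 to -1.89) and under 5 of 12 alternatives. The day 4 difference passed in 3 of 12 alternatives, with a limma adjusted p of 0.0059 to 0.19 over the 12. Among the 3 were the replicate number as a block and that block on the cultures only, the latter added after the data had been seen.

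Averaged over both days, a contrast added after the data had been seen, Foxd1 was lower by 2.04 in tamoxifen-treated cultures (SE 0.27, 95% interval -2.67 to -1.42, limma adjusted p = 0.0075). It was 1 of 26 members called there, against 5.1% of all genes (2.84% higher and 2.26% lower). Foxd1 passed in that contrast in all 12 alternative settings (limma adjusted p up to 0.020). Among these, the slide as a fixed block is the same model as the main fit. The authors' value table holds the same values apart from centring, so neither setting could differ. With each of the 12 arrays left out, the Foxd1 differences were -2.21 to -1.88. In glomeruli Foxd1 read -0.16 and 0.59 in tamoxifen-treated mice against 0.53 and 1.12 in control mice, which overlapped, with a difference of -0.61 (95% interval -1.49 to 0.27).

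Stromal markers stood beside Foxd1 in the same cultures. At day 7, 1 of 13 mesangial, stromal and mural markers passed, Rgs5 of pericytes, lower by 2.82 (limma adjusted p = 0.014). Means of 6 were higher and 7 lower at day 7, and 7 higher and 6 lower at day 4. Acta2 alone made up 90.3% to 95.3% of the summed signal of that list in the cultures. The sum was 271 to 273 in day 7 tamoxifen and 208 to 248 in day 7 mock cultures, and 294 to 312 in day 4 tamoxifen and 221 to 245 in day 4 mock cultures. Without Acta2 it ran the other way, at 12.9 to 14.6 in day 7 tamoxifen and 17.1 to 18.3 in day 7 mock cultures, and 14.6 to 16.0 in day 4 tamoxifen and 18.8 to 21.5 in day 4 mock cultures. At day 4 none of the 13 passed, with Rgs5 at -1.88 (limma adjusted p = 0.065). None of 14 podocyte markers passed on either day, and their sums were 159 to 179 in day 7 tamoxifen and 173 on both arrays of day 7 mock cultures. In the parietal epithelium list 1 of 9 fell at day 7 (Cldn1, -1.95). Over the mean of both culture days, 1 of 14 podocyte markers and 2 of 9 parietal markers were called lower. Of the 13 mesangial, stromal and mural markers, 1 was called higher and 1 lower there. The shares over all genes in that contrast were 2.84% higher and 2.26% lower. The part of these markers in the Foxd1 result was not tested.

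**Figure D3:**
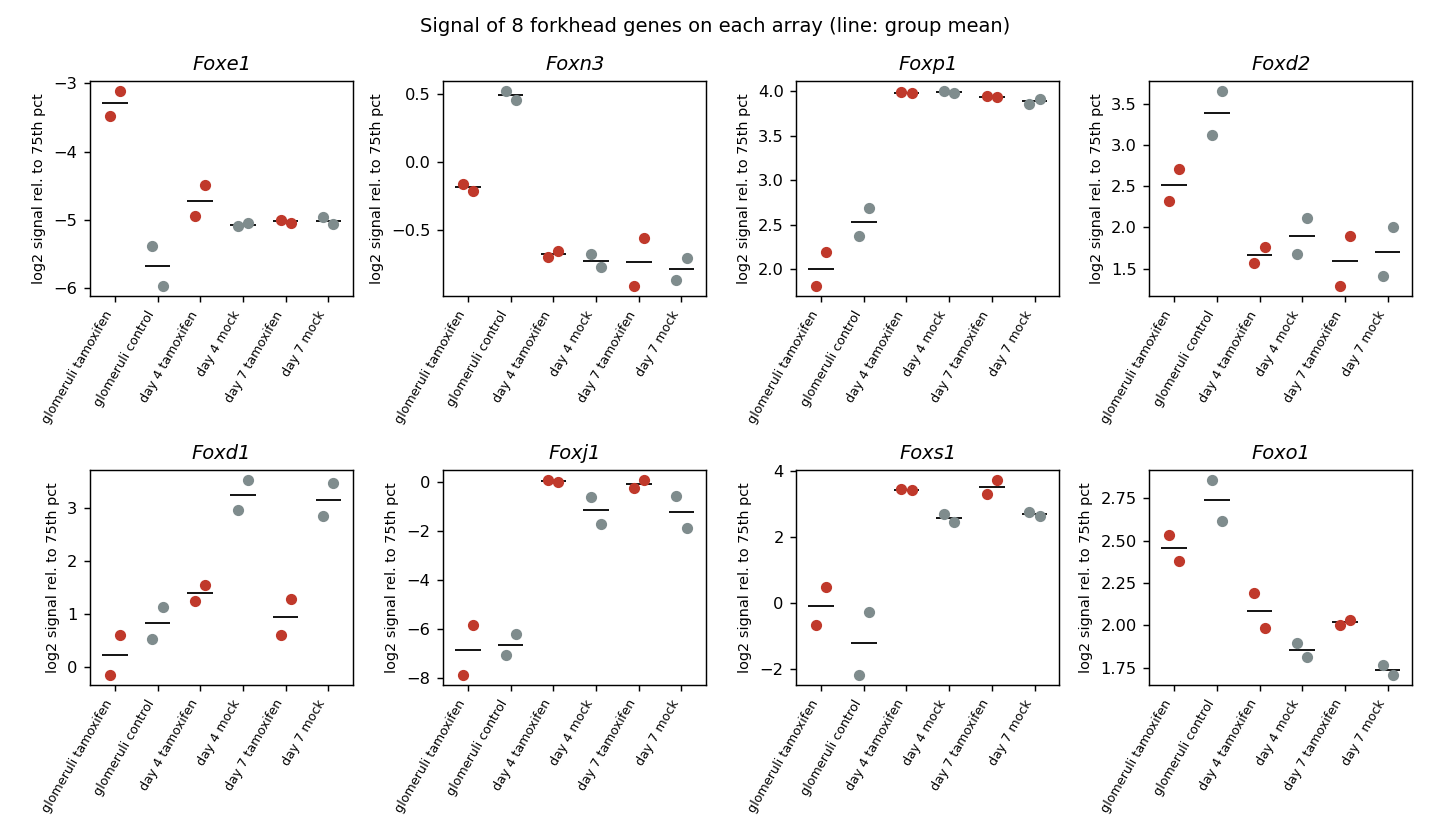
Each point is 1 array and each line a group mean, for 8 forkhead genes, in log2 signal relative to the array's 75th percentile. Groups run from glomeruli (tamoxifen, control) to day 4 and day 7 cultures (tamoxifen, mock), with tamoxifen in red. Foxe1 is highest in treated glomeruli, and Foxd1 is lower in tamoxifen-treated than in mock cultures on both days.

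Foxa1, a pioneer factor of epithelia, had the next lowest p at day 4. It read -0.87 and -0.88 in tamoxifen cultures against -1.08 and -1.42 in mock cultures at day 4, and -1.02 and -1.03 against -1.22 and -1.26 at day 7. The differences of 0.38 (limma adjusted p = 0.38) and 0.21 did not pass. Foxl2, a factor of ovarian granulosa cells, read 5.05 and 4.96 in day 4 tamoxifen against 4.73 and 4.79 in day 4 mock cultures. It differed by 0.25 (limma adjusted p = 0.49), while its day 7 readings of 4.68 and 4.91 in tamoxifen and 4.96 and 4.84 in mock cultures gave -0.10. The other Foxl2 probe gave 0.05 at day 4 and 0.18 at day 7, so the 2 probes differ in sign at day 7. That other probe read -5.18 to -4.38 over the 12 arrays, against 4.53 to 5.05 for the probe used. Both were well above background on all 12 arrays. Which of the 2 probes follows the Foxl2 level was not tested.

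At day 7 the next members by p were Foxj2 and Foxo1. Foxj2 read -4.69 and -4.34 in tamoxifen against -4.23 and -4.00 in mock cultures at day 7, and -4.38 and -4.28 against -4.20 and -3.90 at day 4, differences of -0.40 and -0.28 (limma adjusted p = 0.40 and 0.64). Foxo1, an insulin-responsive factor that Akt moves out of the nucleus, read 2.00 and 2.03 in tamoxifen against 1.77 and 1.71 in mock cultures at day 7. At day 4 it read 2.19 and 1.98 in tamoxifen against 1.90 and 1.82 in mock cultures. The Foxo1 differences of 0.28 and 0.23 were alike on its second probe (0.29 and 0.21), and neither day passed (limma adjusted p = 0.43 and 0.58).

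In 7 members the tamoxifen and mock readings did not overlap in the same direction on both days. Foxa1, Foxj1, Foxo1, Foxo6 and Foxs1 were higher and Foxd1 and Foxj2 lower in tamoxifen cultures, 7 of 26 members against 27.5% of all genes. Foxj1, the regulator of motile cilia, read 0.08 and 0.00 in tamoxifen against -0.61 and -1.73 in mock cultures at day 4. At day 7 it read -0.25 and 0.06 in tamoxifen against -0.58 and -1.88 in mock cultures. The second mock culture was the lower one on both days, and the differences of 1.21 and 1.14 had 95% intervals of -0.44 to 2.86 and -0.51 to 2.78. Foxs1 read 3.43 and 3.43 in tamoxifen against 2.69 and 2.46 in mock cultures at day 4 and 3.28 and 3.73 against 2.74 and 2.63 at day 7. Over both days its mean difference was 0.84 (limma adjusted p = 0.30).

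Over the 26 members, 16 means were higher and 10 lower at day 4 (median 0.07, against 0.02 over all genes), and 12 higher and 14 lower at day 7 (median -0.03, against 0.00 over all genes). Readings of the groups did not overlap for 14 members at day 4, against 50.6% of all genes, and for 11 at day 7, against 41.3%. No member passed the test of the day 7 against the day 4 tamoxifen difference, nor did any other gene (0% of 15226 with limma, 137 at an unadjusted p under 0.05, of which 0 were members).

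The tamoxifen difference in glomeruli was then set against its mean over both culture days. Foxe1 was called, 1 of 26 members (3.85%), against 1.08% of all genes (0.604% higher and 0.473% lower). Its glomerular difference exceeded the culture difference by 2.21 (SE 0.28, limma adjusted p = 0.028). The call was lost without tamoxifen-treated glomeruli 1 or without any 1 of the cultures other than day 7 mock culture 1 (adjusted p up to 0.077), and the difference was 0.19 with normexp. For Foxd1 the glomerular difference was 1.44 less negative (95% interval 0.36 to 2.51) and did not pass (limma adjusted p = 0.17). Foxo1, lower in treated glomeruli and higher in treated cultures, gave -0.53 and did not pass (limma adjusted p = 0.13). Foxn3 gave -0.73 (limma adjusted p = 0.080), so its fall in glomeruli was not shown to differ from its culture readings.

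Mock cultures and control glomeruli differed in 19 of 26 members (73.1%), against 63.6% of all 15226 genes, and the share of members is near that background. In mock cultures 14 members rose and 5 fell, against 37.6% higher and 26% lower over all genes. Of those that rose, Foxa1, Foxj1, Foxi3 and Foxp3 were above background on no glomerular array. They passed the filter on dim probes only through the cultures, so the count of rises depends in part on that filter. The member median was 0.59 and the median of all genes 0.17. Control glomeruli also serve in the glomerular tamoxifen comparison and the mock cultures in those of the cultures. These control arrays are shared, so the directions are not compared. Each difference below is mock cultures minus control glomeruli on the log2 scale.

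Among the Foxa and Foxj1 factors the gaps were the widest. Foxa1 read -1.08, -1.42, -1.22 and -1.26 in mock cultures against -8.29 and -8.02 in control glomeruli. The mock cultures were all well above background and the glomeruli, treated ones included, were not on any array. Foxa1 was therefore at least 27.2-fold higher in mock cultures, which sets the cultures' mean against the dimmest signal well above background on each glomerular array (measured difference 6.91, limma adjusted p = 1.2e-08). Foxj1 read -0.61, -1.73, -0.58 and -1.88 in mock cultures against -7.07 and -6.20 in control glomeruli, at least 28.0-fold higher (measured 5.43, limma adjusted p = 0.00014). Of 17 tested genes of Foxj1 and the motile cilium, 9 rose and 4 fell in mock cultures, with a median of 0.69. The shares over all genes were 37.6% higher and 26% lower (median 0.17). The treated glomeruli read -7.86 and -5.83 for Foxj1, also not above background. With normexp the differences were smaller than these bounds, at 2.65 for Foxa1 and 2.56 for Foxj1, and both still passed (limma adjusted p up to 0.0013 over the alternatives).

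The Foxd, Foxs1 and Foxi1 genes, associated with stroma, pericytes and collecting duct, moved in both directions. Foxs1 read 2.69, 2.46, 2.74 and 2.63 in mock cultures against -2.19 and -0.28 in control glomeruli, 14.6-fold higher (limma adjusted p = 0.00029). The 4 cultures lay close together and the 2 control glomeruli far apart. Foxd1 read 2.98, 3.55, 2.86 and 3.48 in mock cultures against 0.53 and 1.12 in control glomeruli, 5.25-fold higher (limma adjusted p = 0.00040). Foxd1 in tamoxifen-treated cultures, at 0.61 to 1.55, lay under all 4 mock cultures and overlapped the control glomeruli.

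Foxd2 went the other way, at 1.68, 2.11, 1.41 and 2.00 in mock cultures against 3.13 and 3.66 in control glomeruli, 3.01-fold lower (limma adjusted p = 0.0011). Foxi1 read -5.44, -5.81, -5.28 and -5.42 in mock cultures, none of them well above background, against -2.35 and -3.08 in control glomeruli, and was at least 6.68-fold lower (measured -2.77, limma adjusted p = 0.00033). With normexp its difference was -0.82 and still passed (limma adjusted p up to 0.026 over the alternatives). Against 26% lower and 37.6% higher over all genes, 12 of 15 Foxi1 and intercalated cell genes fell in mock cultures and 0 rose. Of those that fell, 8 were below background on all 4 mock arrays, and with genes below background in a group set at their bounds the list median was -2.76 (measured -3.76). In treated glomeruli Foxi1 read -1.79 and -2.22, above both control arrays, with a difference of 0.72 that did not pass (limma adjusted p = 0.42). The sums of the intercalated cell list were 11.9 to 15.9 in treated and 6.73 to 7.51 in control glomeruli, with 12 of 15 means higher and none passing, and their part in the Foxi1 readings was not tested. Foxi3, a factor of ectodermal placodes, was at least 1.92-fold higher in mock cultures, at -5.05, -4.98, -4.47 and -4.98 against -5.81 and -6.26 in control glomeruli that were not above background (limma adjusted p = 0.0030). With normexp the Foxi3 difference was 0.33 and its call was lost (limma adjusted p = 0.35).

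**Figure D4:**
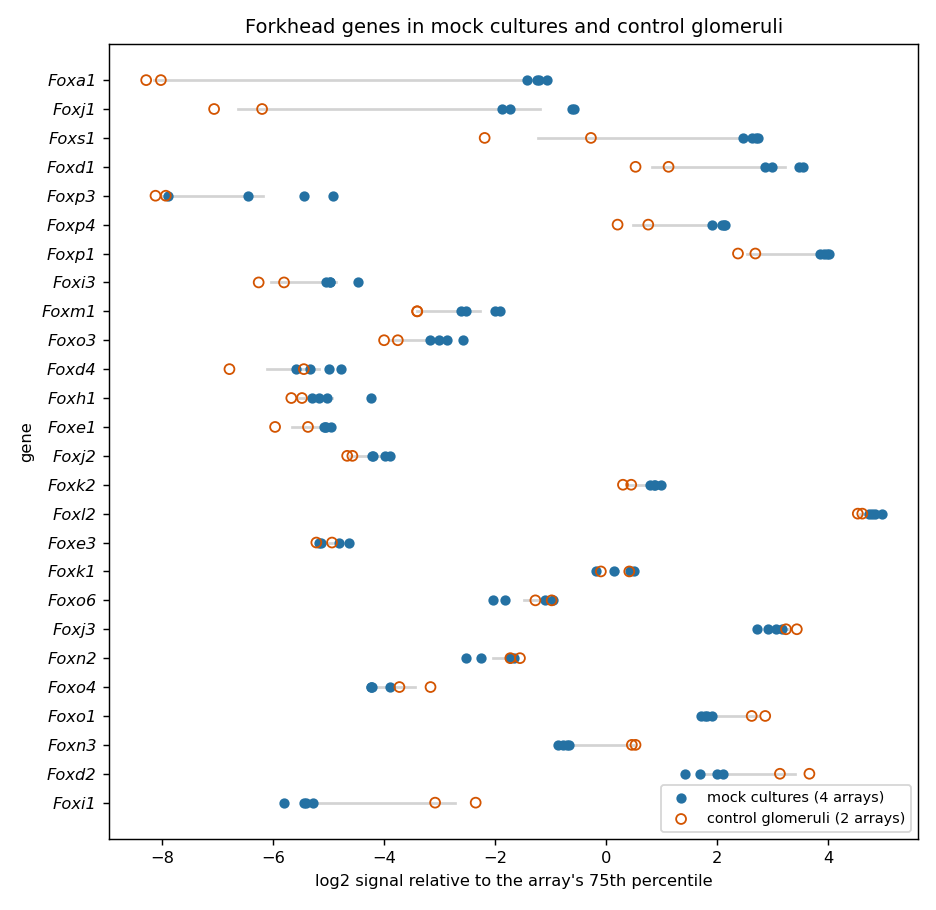
Filled points are the 4 mock cultures and open points the 2 control glomeruli, for 26 forkhead genes ordered by their difference, in log2 signal relative to the array's 75th percentile. Readings of the groups do not overlap for 21 genes, against 71.4% of all genes, from Foxa1 and Foxj1, higher in cultures, to Foxi1, lower in cultures.

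Among Foxp genes, which act as dimers and mostly as repressors, 3 rose. Foxp1 read 4.00, 3.98, 3.85 and 3.91 in mock cultures against 2.37 and 2.68 in control glomeruli, 2.66-fold higher (limma adjusted p = 4.6e-05), and all 3 of its probes were higher by 1.41 to 2.05. The treated cultures were at 3.93 to 3.99. Foxp4 read 2.09, 2.14, 1.90 and 2.12 in mock cultures against 0.75 and 0.20 in control glomeruli, 2.99-fold higher (limma adjusted p = 7.2e-05), with a second probe higher by 1.64, while the third was above background on no glomerular array. Foxp3, the factor of regulatory T cells, read -6.46, -7.90, -4.92 and -5.45 in mock cultures against -8.12 and -7.94 in control glomeruli. Its glomerular and day 4 arrays were all below background, so no fold is given, although the measured difference of 1.85 passed (limma adjusted p = 0.0021, 0.065 with the slide as a random block and 0.38 with normexp). Of T cell markers, Cd3g was below background in all 4 culture groups, while Cd3e, at -1.65 to -0.34, and Cd4, at -1.34 to 0.11, were not below background in any of them.

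The Foxo genes split. Foxo1 read 1.90, 1.82, 1.77 and 1.71 in mock cultures against 2.86 and 2.62 in control glomeruli, 1.92-fold lower (limma adjusted p = 0.00015), and its second probe was lower by 1.26. Foxo4 read -4.22, -3.90, -4.23 and -4.23 in mock cultures against -3.73 and -3.17 in control glomeruli, 1.62-fold lower (limma adjusted p = 0.0097). Foxo3 ran the other way at -3.01, -2.58, -3.17 and -2.87 in mock cultures against -4.00 and -3.76 in control glomeruli, 1.96-fold higher (limma adjusted p = 0.027). Foxo6 overlapped, with a difference of -0.35 (95% interval -1.13 to 0.43). The Foxo3 call was lost without either control glomeruli array or without the second mock culture of either day or with normexp (adjusted p up to 0.14). The Foxo4 call was lost without control glomeruli 2 (0.083) and with normexp, median scaling and quantile normalization, where normexp gave a difference of -0.28 (adjusted p = 0.36).

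Around them, 25 known FoxO target genes and 21 upstream regulators of FoxO were tested, listed with earlier results of these data known. In mock cultures 10 targets rose and 5 fell (median 0.31), and 8 regulators rose and 5 fell (median 0.01). Over all genes 37.6% were called higher and 26% lower there (median 0.17), so both lists were near that background. In treated glomeruli 1 target fell, Trp53inp1 at -1.11 (limma adjusted p = 0.022), and in day 7 tamoxifen cultures 1 target rose, Trim63, a muscle ubiquitin ligase (limma adjusted p = 0.032). Trim63 was below background in both mock groups and at least 1.48-fold higher in day 7 tamoxifen cultures, against a measured difference of 2.78. No target passed at day 4, where Trim63 was at least 1.15-fold higher (limma adjusted p = 0.075) and Cited2 was -1.15. No regulator passed in glomeruli, at day 4 or at day 7. Over the mean of both culture days, 1 of 21 regulators was called lower. In that contrast 3 of 25 targets were called higher and 2 lower, against 2.84% higher and 2.26% lower over all genes. Among the regulators with the lowest p were Pik3ca (-0.33) and Ywhaz (-0.23) in glomeruli, and Sgk1 (-0.88 at day 4, -0.92 at day 7) in cultures.

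Foxm1, which activates genes of mitosis, read -2.62, -2.02, -1.92 and -2.53 in mock cultures against -3.41 and -3.41 in control glomeruli, 2.20-fold higher (limma adjusted p = 0.0061). Its second probe was above background on 4 of 12 arrays and on no glomerular array. Of 23 tested FoxM1 and late cell cycle genes, 21 rose and 1 fell in mock cultures, against 37.6% higher and 26% lower over all genes. The list median was 3.08 log2 units when the 5 genes below background in control glomeruli are set at their bounds (measured 3.36). In treated glomeruli Foxm1 read -3.22 and -3.07, above both control arrays, with a difference of 0.26 (limma adjusted p = 0.71). In that comparison 20 of the 23 genes had higher means, median 0.48 with Bub1b at its bound and the other 4, below background in both groups, at 0 (measured 0.57), and none passed (Kif20a 1.35, limma adjusted p = 0.11; Bub1b at least 2.29-fold higher, its control arrays being below background, adjusted p = 0.11). In tamoxifen cultures 22 of 23 means were higher at day 4 and 7 of 23 at day 7, and none passed, with Cks1b at 0.49 and 0.38. The first Foxm1 probe gave 0.09 at day 4 and -0.09 at day 7.

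The other called members had smaller differences. Foxn3 read -0.68, -0.78, -0.87 and -0.71 in mock cultures against 0.52 and 0.46 in control glomeruli, 2.38-fold lower (limma adjusted p = 4.6e-05). Foxk2, which like Foxk1 represses autophagy genes, read 0.86, 0.79, 0.99 and 0.87 in mock cultures against 0.45 and 0.30 in control glomeruli, 1.42-fold higher (limma adjusted p = 0.0015). Foxj2 read -4.20, -3.90, -4.23 and -4.00 in mock cultures against -4.67 and -4.58 in control glomeruli, 1.45-fold higher (limma adjusted p = 0.013). Among these 3 the groups did not overlap. Foxe1, at -5.09, -5.04, -4.96 and -5.07 in mock cultures against -5.37 and -5.97 in control glomeruli, was 1.55-fold higher (limma adjusted p = 0.023). Foxl2, at 4.73, 4.79, 4.96 and 4.84 in mock cultures against 4.53 and 4.61 in control glomeruli, was 1.20-fold higher (limma adjusted p = 0.046). Its other probe, at -4.91, -4.88, -4.57 and -4.81 in mock cultures against -4.94 and -4.75 in control glomeruli, differed by 0.06. The Foxe1 call was lost without control glomeruli 2, day 4 mock culture 2 or day 7 mock culture 1, where the adjusted p was 0.052 to 0.20, and the Foxj2 call without control glomeruli 1 (0.075). With normexp both calls were lost too (adjusted p = 0.72 for Foxe1 and 0.46 for Foxj2). The Foxl2 call held without either day 7 tamoxifen culture and was lost without any 1 of the other 10 arrays, and its difference was -0.03 with quantile normalization.

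Forkhead cofactors, the co-repressors and partners that these proteins recruit, rose in 10 and fell in 6 of 20 cases in mock cultures (median 0.29). The shares over all genes there were 37.6% higher and 26% lower (median 0.17). In treated glomeruli 1 of the 20 fell, Runx1 (limma adjusted p = 0.013). It was below background on both treated arrays and above it on 1 of 2 control arrays, so only a fall of at least 1.07-fold is measured (difference -0.96), while Runx1 was 0.61 at day 4 and 0.52 at day 7 in tamoxifen cultures and did not pass there. Tle2, a Groucho co-repressor, was -0.86 at day 4 and -0.83 at day 7 (limma adjusted p = 0.13 and 0.11). Over the mean of both culture days 1 of the 20 cofactors was called higher and 1 lower, against 2.84% higher and 2.26% lower over all genes. Of the 17 cilium genes 1 fell in treated glomeruli (Mcidas, -0.81, limma adjusted p = 0.036). None of the 17 passed at day 4 or day 7 of tamoxifen culture, with Tekt2 lowest in p at -1.35 and -0.92. Averaged over both culture days, 1 of the 17 was called lower. Of the 15 intercalated cell genes none passed in glomeruli, at day 4 or at day 7, and 1 was called higher over the mean of both culture days. The proton pump subunit Atp6v0a4 had differences of 1.33 in glomeruli, 1.24 in day 4 and 1.01 in day 7 cultures, none of which passed, and was below background in both day 4 groups and in day 7 mock cultures.

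The 7 tested members called in no comparison were Foxd4, Foxe3, Foxh1, Foxj3, Foxk1, Foxn2 and Foxo6. Foxj3 stayed between 2.50 and 3.43 over the 12 arrays and Foxk1 between -0.35 and 0.50. Foxn2 lay between -2.52 and -1.56, and Foxe3, of the lens, between -5.36 and -4.63. Foxo6 ranged from -2.04 to -0.65, Foxh1, a partner of Smad proteins, from -6.10 to -4.23, and Foxd4 from -6.95 to -4.78. Foxd4 was well above background on 1 array each of control glomeruli, day 4 mock and day 7 mock cultures, and on no tamoxifen array.

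Between day 7 and day 4 of mock culture no member was called, against 0.0328% of all genes (5 genes). With limma, 1 member had an unadjusted p under 0.05, against 6.48% of all genes. That member was Foxp3, at -4.92 and -5.45 in day 7 and -6.46 and -7.90 in day 4 mock cultures, with both day 7 arrays above background and neither day 4 array. Its difference of 1.99 did not pass (limma adjusted p = 0.16), and without day 4 mock culture 1 it was called. The other 25 members differed by -0.22 to 0.61. Tamoxifen cultures showed Foxp3 at -4.48 and -4.63 at day 7 and -6.59 and -6.72 at day 4, again above background at day 7 only.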

How the data were processed

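Per the labels' protocols, each sample's RNA was labelled with Cy3 and measured on an Agilent array of its own. The deposited scanner output gives a linear intensity for each spot from Agilent Feature Extraction 11.5.1.1, named in the submitters' processing notes and the file headers: a background-subtracted processed signal, a median signal, a local background and flags. Per the file headers the array design uses another genome build than RefSeq's GRCm38.p6, so no probe coordinates are given. A value table that the authors deposited is on a log2 scale. Its values tracked the scanner values at r = 1.0 on each array, with column medians of -4.14 to -3.82, and how the authors centred them is not given in the sources used here.

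The processed signal of 43020 non-control spots was taken as log2 minus the array's 75th percentile, leaving out 83 to 134 outlier spots per array, and no spot was saturated. Spots of one probe were averaged. Of 39429 probes, 26581 had 1 gene symbol and 12848 none. A probe was kept when at least 2 of the 12 arrays read it well above background (26414 probes), and the brightest kept probe stood for its gene, which left 15226 genes.

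Groups came from the sample titles. The second floxed gene carries a different number in each genotype label. It is taken as Foxc2, the gene in the series title. A limma 3.58.1 fit (R 4.3.3) of 6 group means over all 12 arrays, with empirical Bayes and 6 residual degrees of freedom, gave each comparison, adjusted by Benjamini-Hochberg over all genes and called at an adjusted p under 0.05. A single comparison of 2 against 2 arrays by exact permutation cannot go below a two-sided p of 0.333. Probes below background on all arrays of a group have only a bound there, the lowest signal well above background on each array or the probe's own, whichever was higher. The number of arrays limits the precision. Scripts were tested on simulated data.

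The members and gene lists were chosen with earlier results of these data known. Every member could be named, but a few genes that these rules cover are not reported here. Values on each array are given for members called in any comparison or with 1 of the 3 lowest p in a tamoxifen comparison. From each list up to 3 called genes per tamoxifen comparison are named, or the 2 with the lowest p. Alternatives changed the background correction (normexp with an offset of 50 on the median signal, since the mean signal was not in the files used here), scaling, normalization, value table, dim-probe filter, probe averaging, variance model, blocks, arrays fitted and each array left out. Same-numbered arrays of the 2 groups compared deviated together at r = 0.21 in glomeruli, 0.51 at day 4 and 0.54 at day 7. Between day 7 and day 4 they did so at r = 0.55 in mock and 0.43 in tamoxifen cultures. Arrays of the 2 days may therefore not be independent. The mean of both culture days and the comparison of mock cultures with control glomeruli count them as separate arrays. Nothing in the labels says that the numbers mark a shared source.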

Additional observations from a re-analysis of the deposited data

Results flagged for a closer look

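Foxe1 was flagged because its tamoxifen difference differed between glomeruli and cultures. The glomerular difference was 2.37 and the mean culture difference 0.17, and the test of the difference itself gave 2.21 (95% interval 1.56 to 2.85, limma adjusted p = 0.028). It was the only tested member past the threshold in that contrast. The probe was above background on 1 of 2 control glomerular arrays, and on 9 of the other 10 arrays.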

How the results depend on the processing

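Of 719 recomputed values of named members, 717 kept their direction and 74 fell back under the threshold. Many of the 719 could not change direction, so the 717 are no measure of robustness. These include runs that left out an array outside the comparison, changed only the variance model or took the slide as a fixed block. The authors' value table, which tracks the same signal, is another. The 2 reversals were Foxl2 at day 4 with normexp, at -0.089 and Foxl2 in mock cultures against control glomeruli with quantile normalization, at -0.034. The cause of these changes was not tested. The number of members called in glomeruli was 2, and became 0 with normexp and with only the glomeruli fitted, and 1 with median scaling and with no filter on dim probes. At day 4 it was 0, and became 10 (9 higher, 1 lower) with normexp, which called 5053 genes and moved the median of all genes to 0.19, and 1 with the replicate block or the culture replicate block, where it was Foxd1. At day 7 it was 1, and became 0 with normexp, median scaling, quantile normalization, no filter and only those groups fitted. For glomeruli minus cultures it was 1, and became 0 with normexp and 2 with the replicate block. For the mean of both culture days it was 1, and 2 (Foxd1 and Foxs1) with only the cultures fitted. For mock cultures against control glomeruli it was 19, and 12 with normexp, which lost Foxe1, Foxi3, Foxj2, Foxl2, Foxo3, Foxo4 and Foxp3. With 1 array left out, the counts ran from 1 to 2 in glomeruli, 0 to 0 at day 4, 0 to 0 at day 7, 0 to 1 for glomeruli minus cultures, 1 to 2 for the mean of both days, 0 to 1 for mock day 7 against day 4 and 15 to 20 for mock cultures against control glomeruli. Where a group was left with 1 array, that array was assumed to vary like the other groups. For day 7 minus day 4 the count was 0 throughout.

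Over all genes the calls ran from 0 (glomeruli alone) to 498 (quantile) around 399 in glomeruli, with 5 under normexp. At day 4 they ran from 0 to 5053 around 32, and at day 7 from 1 to 503 around 148. With the replicate number as a block, which rests on 2 numbers that the labels do not tie to a shared source, calls were 110 at day 4, 245 at day 7 and 254 for glomeruli minus cultures, and it changed no other member count by over 1.5 times. The culture replicate block was added after seeing the data and gave 269 at day 4 and 503 at day 7. Median scaling moved the all-gene median for mock cultures against control glomeruli to 0.39 from 0.17, so Foxl2, Foxk2 and Foxj2 there were 0.48, 0.72 and 0.76. The slide as a fixed block gave the same calls, since each tamoxifen comparison lies within a slide. As a random block over mock cultures and control glomeruli it called 20 members, with an estimated correlation of -0.53. Signal over background limits Foxa1, Foxd4, Foxi1, Foxi3, Foxj1 and Foxp3, which were below background in at least 1 group.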
